A study of Mus musculus with 7 samples.

Results

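The nuclear-encoded subunits of the respiratory chain and of ATP synthase were followed in CD4 T cells sorted from mouse lung tumours. Members were taken by name and biotype from the raw count table: protein-coding genes whose symbol starts with Ndufa, Ndufb, Ndufc, Ndufs or Ndufv and a digit, Sdha to Sdhd, symbols starting with Uqcr or Atp5, and Cox4 to Cox8 with their variants. The rule found 87 genes of 55364 in the table, carrying 86 symbols because Atp5o is listed under 2 gene IDs. They divide into 38 genes of complex I, 4 of complex II, 8 of complex III, 19 of complex IV and 18 of complex V. The rule leaves out subunits with other names, such as Ndufab1 and Cyc1, and the mitochondrially encoded subunits were not analysed here.

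Mice of the strain C57BL/6, over 8 weeks old, all carried the floxed class II allele I-AbF/F and all received tamoxifen. The Control group (5 libraries) had I-AbF/F alone, and the Cre group (2 libraries) had I-AbF/F Col1a2-cre, in which the promoter of a collagen gene used by fibroblasts drives Cre. The sorted CD45+CD3+CD4+ cells were thus not the target of the deletion, and the question was what the T cells express when fibroblasts lack MHC class II. The submitters describe the libraries as biological replicates, each holding counts of 3′ ends of transcripts.

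As background, complexes I to IV pass electrons from NADH and succinate through ubiquinone and cytochrome c to oxygen, while complexes I, III and IV move protons across the inner mitochondrial membrane. Complex V, the ATP synthase, lets protons return and makes ATP. Resting and memory T cells lean on this route, and activated T cells combine it with strong glycolysis. Several complex IV subunits exist as pairs of paralogs, of which one is used in most tissues and the other in heart and skeletal muscle, lung or testis.

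Total counts ran from 1484655 to 1724346 in Control and were 1929899 and 1449739 in Cre. In a single library, 0 counts allow up to 3, which is 1.55 to 2.07 CPM (each count relative to its library's total) and covers counting error only. The 10 CD4 T cell markers summed to 5069 to 6340 CPM among Control libraries, with 6349 and 4953 CPM for Cre. The 9 macrophage markers summed to 14.5 to 6689 CPM among Control libraries, with 2.59 and 4.83 CPM for Cre; Adgre1 and C1qc were at 0 in every library, and Apoe gave 10867 counts in Control 5. The 6 fibroblast markers summed to 160 to 575 CPM among Control libraries, with 276 and 53.1 CPM for Cre. Col1a2 had 179, 50, 242, 40 and 336 counts in Control against 7 and 2 in Cre, Dcn had 76, 7, 112, 115 and 257 against 364 and 41, and Col3a1 had 22 to 85 against 35 and 26. The 5 CD8 T and NK cell markers summed to 54.6 to 210 CPM among Control libraries, with 46.6 and 2.07 CPM for Cre, both below Control; Nkg7 gave most of these counts, and Cd8a had at most 1 count in a library. Lung epithelial markers reached at most 25.4 CPM in sum, endothelial markers 68.7 CPM and erythroid markers 39.1 CPM, and the groups overlapped in each. The 4 B cell markers and the 4 neutrophil markers stayed under 2 CPM in sum in each library. What these other cells add to the subunit counts was not tested. In such bulk samples, fewer cells of a type and less RNA per cell cannot be told apart.

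In each of the 7 libraries, at least 1 member of each complex was above 100 CPM. Of the 87 members, 78 passed the filter on low counts and were tested, and 9 did not. In Cre 2, 12 of the tested members had no count, Cox4i1 among them. The paralogs of muscle, lung and testis were near 0: Cox6a2, Cox7b2, Cox8b and Cox8c had no count in any library, Cox4i2 and Cox6b2 had 1 count in all, and Cox7a1 had 4 counts, all in Control 1. Ndufa4l2, a paralog of Ndufa4, and the second Atp5o ID, which overlaps Donson, also had no count. Of the general partners of the tissue paralogs, Cox4i1 was at 93.1 ± 64.9 CPM (SD, n = 5) and Cox6a1 at 131 ± 54.7 CPM in Control. Cox6b1 was at 207 ± 101 CPM and Cox8a at 406 ± 103 CPM. In Cre 1 these 4 genes were at 180, 54.4, 45.1 and 738 CPM, and in Cre 2 at 0, 3.45, 100 and 408 CPM.

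Set per kilobase of counted region, the Control median was 1636 CPM per kb for Ndufb3 and 1002 CPM per kb for Ndufa1, both small accessory subunits of complex I, 950 CPM per kb for Atp5g3, a gene for the proton-carrying ring of ATP synthase, and 868 CPM per kb for Uqcrh, the hinge protein of complex III. Counts of 3′ ends need not scale with the length of the counted regions, so no order of levels between members is drawn from these values.

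Members also differed in how steady they were. The coefficient of variation of CPM over the 5 Control libraries was lowest for Atp5l (8.63%), Atp5g3 (9.43%), Cox6c (11.2%) and Uqcrh (13.4%), had a median of 48.8% over the 78 tested members, and was highest for Ndufa3 (212%), Ndufa5 (110%) and Uqcrc1 (104%). Cox6c had 1160 to 1578 counts in the Control libraries and Atp5l 193 to 259, while Uqcrc1 had 0 to 124.

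**Figure D1:**
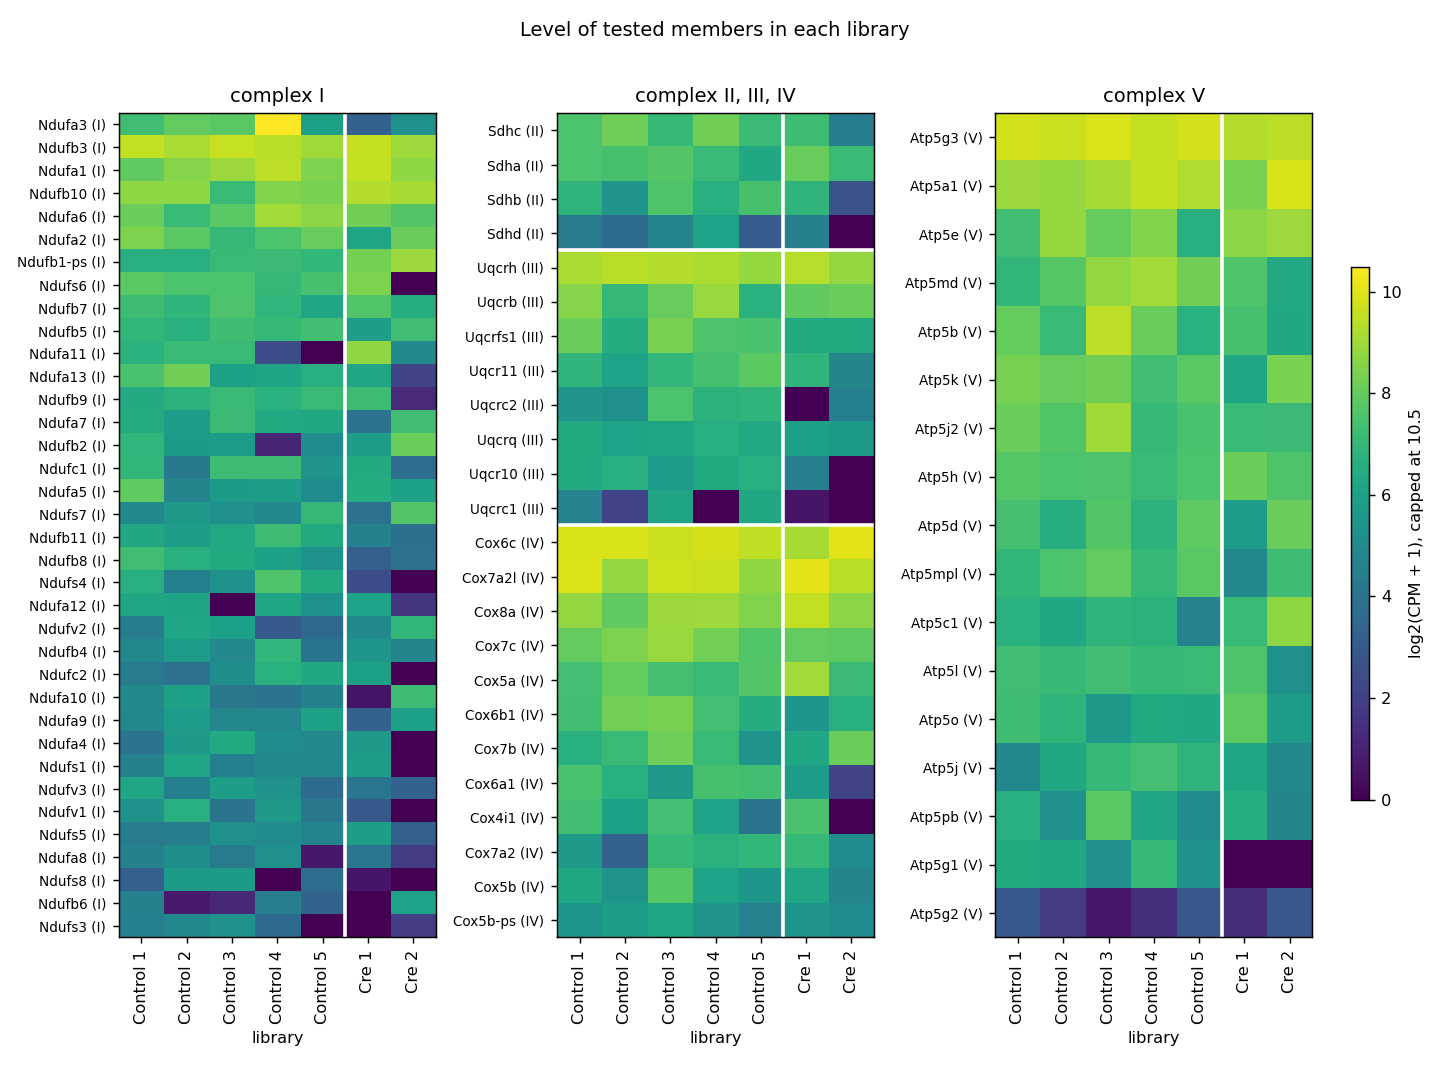
Level of tested members in each library, as log2(CPM + 1), with colours capped at the top of the scale and rows ordered within each complex by mean level; white lines separate complexes and the 2 Cre libraries. The rows of Ndufb3, Uqcrh, Cox6c and Atp5g3 are bright in all 7 libraries, and dark cells (0 counts) are most frequent in Cre 2, where 12 tested members have no count.

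No member passed the main test of Cre against Control, the quasi-likelihood test of edgeR adjusted over 9854 genes at 0.05. It called 0 of 78 members higher (background 0%) and 0 lower (background 0.0101%, which is 1 gene). At an unadjusted p under 0.05, 2 members were higher (2.56%, background 1.41%) and 8 were lower (10.3%, background 10.2%), so the share of lower members was close to that of all tested genes. DESeq2 on the same genes called 1 of 76 members higher (1.32%, background 0.417%) and 5 lower (6.58%, background 7.23%), and limma voom called none (background 0.0304% higher and 0% lower; with library weights 0.0101% and 0%). EdgeR with the replicate number as a block called 1 member lower, Ndufa3 (1.28%, background 0.0507%). Replicates 3, 4 and 5 exist only in Control, so that fit compares the groups within replicates 1 and 2 alone. A p that misses the threshold, with 2 Cre libraries, does not show that values did not differ. In the authors' deposited table, 1 of 81 listed members was higher at an FDR under 0.05 (background 0.211%) and 5 were lower (6.17%, background 3.64%).

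DESeq2 called Ndufb1-ps higher, and Atp5g1, Ndufs4, Ndufb8 and Uqcrc1 were among those it called lower. Of these, Uqcrc1 did not pass in the authors' deposited table, where Ndufb11 did (FDR 0.0284). In a repeat chosen after seeing the data, DESeq2 called 1 higher and 3 lower without Control 1 (background 0.420% and 4.99%), and 1 higher and 7 lower without Control 4 (0.527% and 6.59%). It called 2 higher and 19 lower without Cre 1 (background 1.36% and 22.1%), and 0 higher and 7 lower without Cre 2 (0.437% and 12.5%). Atp5g1 and Ndufs4 were called lower in all 7 repeats that left out 1 library. Ndufb8 was not called without Control 1 or without Cre 1, nor Ndufb1-ps without Cre 2.

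The fitted log2 fold change, Cre minus Control, was below 0 for 56 of 78 members (71.8%, background 60.1%), and with DESeq2 size factors in the same fit for 46 of 78 (59.0%, background 57.4%). Its median was −0.35 over the members and −0.39 over all tested genes. DESeq2 size factors moved both up by 0.10, to −0.25 and −0.29. Both Cre libraries lay below every Control library for 12 members (15.4%, background 10.9%) and above every Control library for 3 (3.85%, background 4.05%). Medians by complex were −0.31 for complex I (37 members), −1.10 for II (4), −1.16 for III (8), −0.07 for IV (12) and −0.33 for V (17). Leaving out a single Cre library changed them: without Cre 1 they were −1.67 for complex I, −3.89 for II and −1.74 for III, and without Cre 2 −0.15 for I, −0.12 for II and −0.67 for V. Cre 2 was also the lower over all tested genes. Their median deviation from the Control median, in log2(CPM + 1), was −0.38 in Cre 1 and −0.74 in Cre 2. Over the members it was −0.33 and −0.66. By complex, I to V, it was −1.73, −3.61, −1.70, −0.41 and −0.34 in Cre 2. These are descriptions of the lists, without a test of their own.

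These shares differed with abundance. Among genes with a mean of 30 to 100 CPM, 25 of 29 members were fitted lower (86.2%), with a median of −0.64, against 52.9% and a median of −0.11 over the 3127 tested genes of that range. From 100 to 300 CPM, 21 of 30 members were fitted lower against 51.8% of 1331 tested genes, with medians of −0.32 and −0.030. Over 300 CPM, 5 of 11 members were fitted lower (45.5%, against 49.9% of 557 genes), with a median of 0.13. Under 30 CPM, 5 of 8 members were fitted lower (62.5%, against 68.1% of 4839 genes), with medians of −1.22 and −1.53. The members' share was thus above that of all tested genes in the middle ranges and below it in the lowest and highest. The limits of these ranges were chosen after the data were seen.

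**Figure D2:**
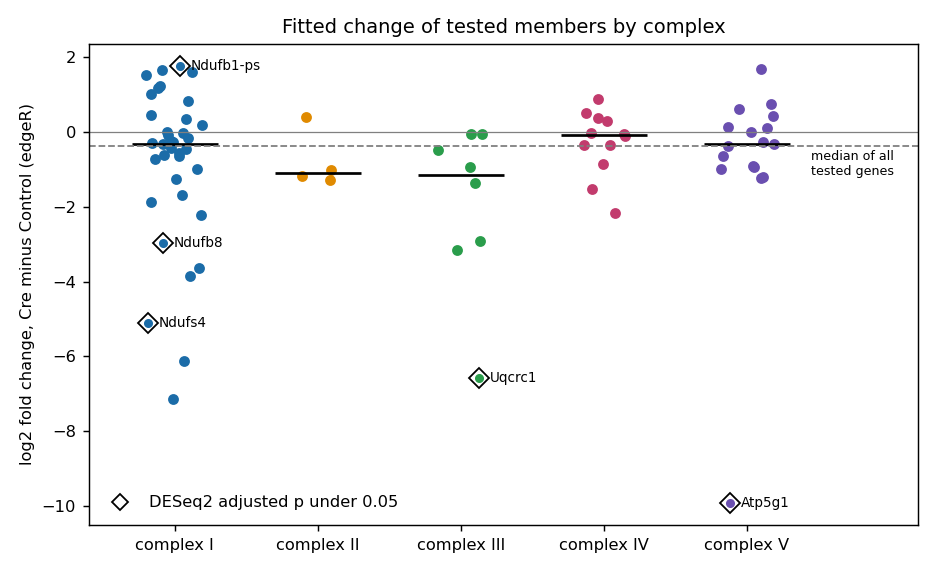
Fitted log2 fold change (Cre minus Control, edgeR) of tested members by complex; each point is a gene, black bars are medians of all tested members of a complex, the dashed line is the median of all tested genes, and open diamonds mark members with a DESeq2 adjusted p under 0.05. All 8 points of complex III lie below 0 (6 of 8 with DESeq2 size factors), with a median of −1.16, while complex IV centres on −0.07.

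Complex I, the NADH dehydrogenase, joins an arm in the matrix that takes electrons from NADH to one in the membrane that moves protons. Ndufs4, an accessory subunit of the matrix arm whose loss causes Leigh syndrome in humans, had 158, 33, 65, 334 and 133 counts in Control against 9 and 0 in Cre. No Cre library reached the Control range. The log2 fold change was −5.11 ± 1.64 (SE; edgeR adjusted p = 0.367, DESeq2 adjusted p = 0.00230). Without Cre 1, edgeR gave an adjusted p of 0.0488, with the lone Cre library assumed to vary like the Control libraries.

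Core subunits of complex I differed in how their Cre counts lay against Control. Ndufv1, which binds NADH and flavin, had 67, 146, 25, 86 and 28 counts in Control against 13 and 0 in Cre, both below Control. Its partner Ndufv2 had 35, 105, 98, 12 and 18 counts in Control against 59 and 179 in Cre, within and above the Control range. Ndufs1, the large iron-sulfur subunit, had 38, 107, 36, 50 and 45 counts in Control, then 109 in Cre 1 and 0 in Cre 2. Nor was there a common direction among others: Ndufs3 and Ndufs8 were at 0 to 64 and 0 to 84 counts in Control and at most 4 in Cre, whereas Ndufs7 had 50 to 204 in Control and 28 and 294 in Cre.

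The membrane arm held both complex I members with each Cre library above Control, Ndufb1-ps and Ndufb10. Ndufb1-ps had 163, 144, 215, 245 and 202 counts in Control against 605 and 709 in Cre, which is 118 ± 20.7 against 401 ± 124 CPM. Its log2 fold change was 1.76 ± 0.42 (SE; edgeR adjusted p = 0.270, DESeq2 adjusted p = 0.00452). The file lists it as protein-coding, while GENCODE M21 gives it as a bidirectional promoter lncRNA. Its counts come from 2 regions, and the one at chr12:101975499-101975747 (mm10, as for all counted regions; minus strand), with 88 exonic and 161 intronic bases, had 47, 0, 36, 0 and 61 counts in Control against 235 and 200 in Cre.

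Further accessory subunits of that arm, Ndufb8 and Ndufb11, were lower in both Cre libraries. Ndufb8 had 257, 150, 133, 109 and 66 counts in Control against 16 and 21 in Cre, a log2 fold change of −2.97 ± 1.05 (SE) at an edgeR adjusted p = 0.400 and a DESeq2 adjusted p = 0.0152. Ndufb11, encoded on the X chromosome, had 126, 83, 130, 255 and 135 counts in Control against 45 and 20 in Cre, with −2.23 ± 0.95 (SE; edgeR adjusted p = 0.427, DESeq2 adjusted p = 0.0623). Ndufb10 had higher counts in both Cre libraries without passing any test, with 223 to 714 counts in Control against 1210 and 805 in Cre. Its regions chr17:24721811-24722116 and chr17:24722156-24722404 (minus strand) overlap Rps2 on the opposite strand and held 34.3% and 39.8% of its counts. The region chr17:24722433-24722681, without that overlap, had 46 to 180 counts in Control against 260 and 345 in Cre. What Rps2 adds to these counts was not tested. Ndufb3 stayed close, at 653 ± 113 CPM in Control, then 635 ± 188 CPM in Cre.

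Ndufa3, an accessory subunit of complex I, had 257, 368, 360 and 101 counts in Control 1, 2, 3 and 5, 28363 counts in Control 4, but 17 and 59 in the Cre libraries. One region, chr7:3620001-3620576 (plus strand), held 28310 of the counts of Control 4. It was the highest region of that library, with 1.64% of its total. Of its 576 bases, 327 are 3′ UTR of at least 1 annotated transcript and 249 extend beyond the annotated gene, and it overlaps Tfpt on the opposite strand, a gene with 37 counts in Control 4. Both Cre libraries were below all 5 Control libraries, with a fitted log2 fold change of −7.14 ± 3.77 (SE) at an edgeR adjusted p = 0.465, a size that moved to −2.80 without Control 4 and to −8.56 without Cre 2.

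This gene also set the sum of complex I. All 38 members summed to 7519 ± 7542 CPM in Control (SD, n = 5) against 4391 ± 612 CPM in Cre (n = 2). Without Ndufa3, a repeat chosen after seeing the data, the sums were 4093 ± 415 and 4366 ± 635 CPM, and the Cre libraries lay on both sides of the Control mean.

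Complex II, succinate dehydrogenase, links the tricarboxylic acid cycle to the chain and is wholly encoded in the nucleus. Its 4 subunits summed to 398 to 598 CPM among Control libraries, with 554 CPM for Cre 1 and 161 CPM for Cre 2. The Cre libraries thus stood apart from each other, one inside the Control range and one below it. Sdhb, the iron-sulfur subunit, had 65 to 316 counts in Control, 221 in Cre 1 and 8 in Cre 2. Sdhc, a membrane anchor, had 211 to 512 counts in Control, 287 in Cre 1 and 30 in Cre 2. Sdhd, the other anchor, had 12 to 117 counts in Control, 44 in Cre 1 and 0 in Cre 2, but the flavin-binding catalytic subunit Sdha had 518 and 195 counts, the latter within its Control range of 121 to 338. No complex II member passed a test in the full comparison.

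Complex III, the cytochrome bc1 complex, passes electrons from ubiquinol to cytochrome c. All 8 of its members were fitted lower in Cre, and 6 of 8 with DESeq2 size factors, where Uqcrb and Uqcrh turned positive. Both Cre libraries lay below every Control library for 4 of the 8, against 10.9% of all tested genes: Uqcrfs1, Uqcrc2, Uqcr10 and Uqcrq. Summed levels spanned 1150 to 1720 CPM in Control, with 1173 and 912 CPM for Cre, so the sums overlapped. Uqcrh, the member with the most counts, was at 577 ± 77.3 CPM in Control, then 548 ± 144 CPM in Cre.

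Uqcrfs1 encodes the Rieske iron-sulfur protein, which takes the first electron from ubiquinol. It had 471, 134, 526, 329 and 291 counts in Control against 158 and 119 in Cre; scaled to library size these were 213 ± 91.3 and 82.0 ± 0.15 CPM, with 90.3 CPM in the lowest Control library. The log2 fold change was −1.38 ± 0.60 (SE; edgeR adjusted p = 0.427, DESeq2 adjusted p = 0.217). All of its counts came from the region chr13:30540059-30540730 (minus strand), 423 of whose 672 bases are annotated 3′ UTR.

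The core proteins Uqcrc1 and Uqcrc2 form the matrix side of the complex. Uqcrc2 had 73, 56, 302, 183 and 191 counts in Control against 0 and 32 in Cre. Uqcrc1 had 41, 5, 114, 0 and 124 counts in Control against 1 and 0 in Cre, so Control 4, at 0, overlapped the Cre libraries. Its log2 fold change of −6.58 ± 2.86 (SE) at an edgeR adjusted p = 0.427 and a DESeq2 adjusted p = 0.0475 rests on few counts, and DESeq2 lost the call without Control 1, 3 or 5 and without Cre 2. Uqcr10, a small subunit, had 90 to 156 counts in Control against 41 and 0 in Cre.

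**Figure D3:**
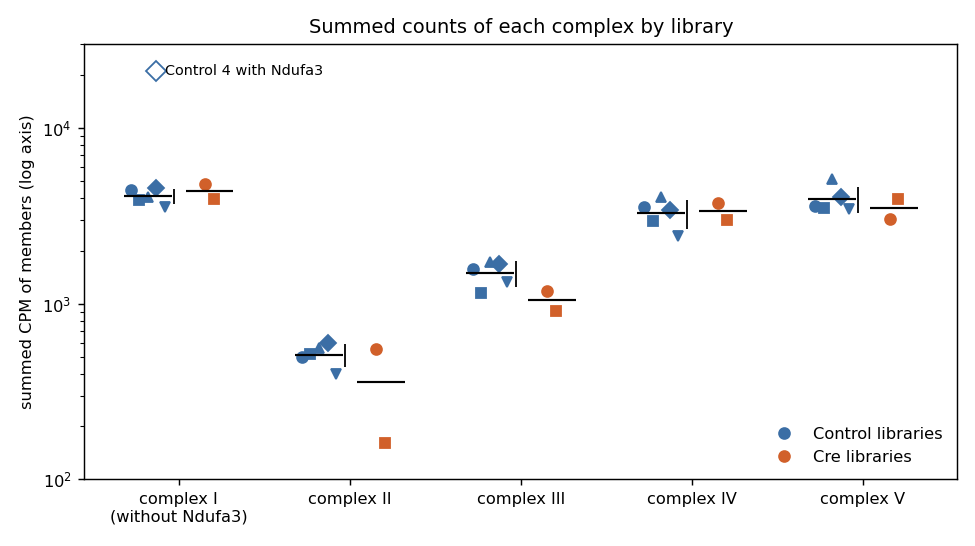
Summed CPM of the members of each complex in each library on a log axis; each filled point is a library, the same shape marks the same replicate number, long bars are group means and vertical bars the SD of the 5 Control libraries. Complex I is drawn without Ndufa3, and the open diamond is its sum with Ndufa3 in Control 4; in complex II Cre 2 is the lowest library at 161 CPM, while in each complex the 2 groups overlap.

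Complex IV, cytochrome c oxidase, hands the electrons to oxygen. Its nuclear subunits summed to 3268 ± 614 CPM in Control, then 3365 ± 523 CPM in Cre. No tested member (0 of 12) had both Cre libraries below or both above the Control range, against 10.9% and 4.05% of all tested genes. In CPM the Cre libraries lay outside that range on opposite sides for Cox4i1 and Cox6c. Cox6c, with the most counts among them, had 1160 to 1578 counts in Control against 1089 and 1529 in Cre. Cox5a, a subunit on the matrix side, had 229 to 388 counts in Control, 1012 in Cre 1 and 208 in Cre 2. Cox4i1, the general isoform of the subunit that binds regulatory nucleotides, had 266, 93, 266, 114 and 25 counts in Control, 347 in Cre 1 and 0 in Cre 2. Ndufa4, counted here with complex I by its name but known as a complex IV subunit, had 25 to 136 counts in Control, 95 in Cre 1 and 0 in Cre 2.

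Complex V makes ATP with a catalytic head (Atp5a1, Atp5b, Atp5c1 and others) and a membrane ring of identical mature subunits encoded by Atp5g1, Atp5g2 and Atp5g3. Atp5g1 had 138, 112, 63, 219 and 65 counts in Control against 0 and 0 in Cre. It was the only member with counts in every Control library and none in either Cre library, 1 of 73 members (1.37%, background 5.38%). Its level of 72.6 ± 36.3 CPM in Control is at least 81.8-fold higher than the 0.888 CPM that 3 counts over both Cre libraries would give. The adjusted p was 0.214 in edgeR and 4.45e-05 in DESeq2, and edgeR passed the threshold without a filter (0.0341) and without Cre 1 (0.0408). All its counts lay in chr11:96068603-96073103 (minus strand), of which 4252 of 4501 bases are annotated 3′ UTR.

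Atp5g3 gave most ring-gene counts in every library. It had 1468, 1182, 1566, 1303 and 1433 counts in Control against 1211 and 999 in Cre, at 853 ± 80.4 and 658 ± 43.6 CPM. Both Cre libraries lay below Control, by little, with a log2 fold change of −0.37 ± 0.31 (SE) at an edgeR adjusted p = 0.674. Atp5g2 had 1 to 11 counts in any library. Of all counts of the 3 ring genes, Atp5g1 gave from 3.87% (exact 95% interval 2.98 to 4.92) in Control 3 to 14.4% (12.6 to 16.2) in Control 4. In Cre it gave 0 of 1214 counts (exact 95% interval 0 to 0.303%) in Cre 1 and 0 of 1008 counts (0 to 0.365%) in Cre 2. These shares compare reads of regions of unequal length and cover counting error only.

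In the catalytic head, Atp5c1, the central stalk subunit, had 39 to 188 counts in Control against 266 and 610 in Cre, with both Cre libraries above Control and a log2 fold change of 1.68 ± 0.65 (SE) at an edgeR adjusted p = 0.422 and a DESeq2 adjusted p = 0.117. Atp5a1 had 685 to 1317 counts in Control, 638 in Cre 1 and 1339 in Cre 2, below and above the Control counts. Atp5b, the catalytic beta subunit, had 167 to 1145 counts in Control against 331 and 111 in Cre. Atp5e, a small subunit of the stalk, had 154 to 670 counts in Control against 776 and 713 in Cre, but its CPM in Cre 1 (402) lay under that of Control 2 (451).

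**Figure D4:**
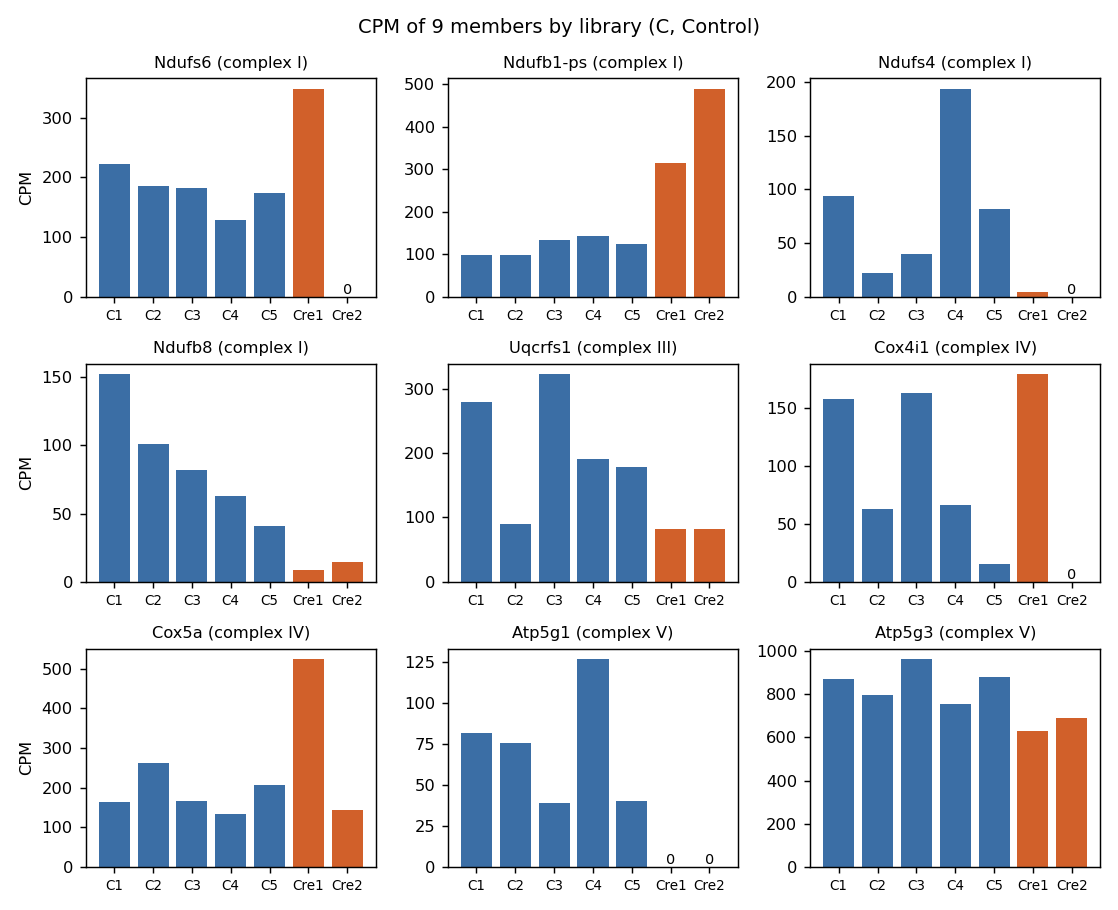
CPM of 9 members in each library, 1 bar per library (C1 to C5, Control; Cre1 and Cre2), each panel with its own axis from 0; members were picked after their values were seen. Ndufs4, Ndufb8 and Atp5g1 are lowest in both Cre libraries, Ndufb1-ps is highest in both, and Ndufs6 and Cox4i1 are high in Cre 1 and at 0 in Cre 2.

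The 2 Cre libraries disagreed on many members, a comparison made after the data were seen. Their levels differed by 4-fold or more for 33 of 78 members, against 7 to 15 in the 10 pairs of Control libraries. The median absolute log2 difference between them was 1.82 over the members and 1.48 over all tested genes, while Control pairs gave 0.59 to 0.87 over the members and 1.05 to 1.26 over all tested genes. Among genes over 100 CPM, the Cre pair gave 1.26 over 41 members and 0.83 over 1888 genes. With a single Cre pair there is no spread of such pairs to test against.

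Ndufs6, a zinc-binding subunit of the matrix arm, shows the contrast at its strongest, with 374, 276, 297, 221 and 284 counts in Control, 673 in Cre 1 and 0 in Cre 2. All 4 of its counted regions with reads in Cre 1 (324, 236, 97 and 16 counts) were empty in Cre 2. Ndufb9 likewise had 142 to 227 counts in Control, 278 in Cre 1 and 2 in Cre 2. The reverse held for Ndufa10 (27 to 94 in Control, 1 in Cre 1, 209 in Cre 2) and Ndufb6 (1 to 38 in Control, 0 in Cre 1, 96 in Cre 2).

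Against the Control range, 12 members were below it in both Cre libraries and 3 above it in both, while 13 (16.7%, against 8.09% of all tested genes) were above in one and below in the other. Cre 2 lay below every Control library for 34 of 78 members (43.6%, against 26.5% of all tested genes), and Cre 1 for 25 (32.1%, against 21.6%). Zeros followed the same order: 12 tested members (15.4%) had no count in Cre 2 and 4 (5.13%) in Cre 1, against 0 to 2 (at most 2.56%) in Control libraries. Over all tested genes the shares at 0 were 33.6% in Cre 2 (3315 of 9854), 2464 of 9854 in Cre 1 and 1.14% to 16.1% in Control, each above the members' share in the same library. The part of this wider loss of detection in the members' lower values was not tested.

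**Figure D5:**
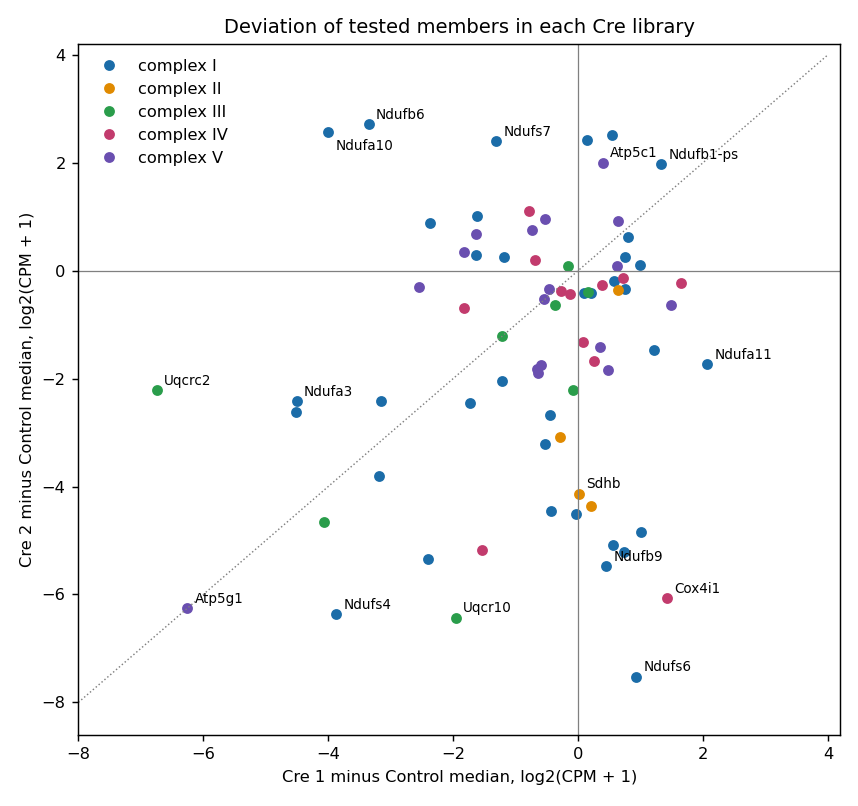
Levels of tested members in Cre 1 (x axis) and Cre 2 (y axis), as log2(CPM + 1) minus the median of the 5 Control libraries, coloured by complex; the dotted line marks equal values, and labelled members were picked after their values were seen. Atp5g1, Ndufs4 and Uqcrc2 are low in both, Ndufb1-ps is high in both, and Ndufs6 and Cox4i1 are near or above 0 in Cre 1 and at or under −6 in Cre 2.

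Genes that serve the chain were counted from lists of carriers, assembly factors, the tricarboxylic acid cycle, regulators and import. EdgeR called none of them after adjustment. At an unadjusted p under 0.05, 1 of 33 tested assembly factors was higher and 5 were lower, 0 and 4 of 16 cycle genes, 1 and 2 of 15 carriers, and none of 8 regulators or 12 import genes, beside 1.41% higher and 10.2% lower over all tested genes. Cox10, which makes the heme of complex IV, had 84, 26, 35, 48 and 54 counts in Control against 209 and 453 in Cre (edgeR adjusted p = 0.323, DESeq2 adjusted p = 0.00503). Cox20, a chaperone of the mitochondrially encoded COX2, had 95, 274, 102, 272 and 285 counts in Control against 30 and 1 in Cre (edgeR adjusted p = 0.367, DESeq2 adjusted p = 0.00456).

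In the tricarboxylic acid cycle list, Idh3a, a catalytic subunit of isocitrate dehydrogenase, had 41, 6, 71, 50 and 1 counts in Control and none in Cre (edgeR adjusted p = 0.422, DESeq2 adjusted p = 0.0312). Vdac1, the main pore of the outer membrane, had 17 to 87 counts in Control against 3 and 0 in Cre (edgeR adjusted p = 0.422, DESeq2 adjusted p = 0.0198). Among regulators, Esrra, a nuclear receptor that acts on respiratory genes, had 25, 32, 40, 143 and 117 counts in Control against 0 and 11 in Cre, both below Control (log2 fold change −3.50, edgeR adjusted p = 0.442, DESeq2 adjusted p = 0.131). Transcripts of Tfam and Yy1 overlapped between groups, at 34.0 ± 30.3 against 53.8 ± 58.5 CPM and 86.0 ± 35.5 against 98.2 ± 2.57 CPM. Mitochondrial ribosomal protein genes, another nuclear-encoded set, had a median log2 fold change of −0.35 over 72 tested genes, equal to that of the chain to 2 decimals. The median over all 9854 tested genes was close to both, at −0.39.

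Promoters of respiratory chain genes are known targets of NRF1, ETS factors such as GABP, and YY1. RefSeq promoters (GRCm38.p6, 250 bases before to 50 after the start) were at hand for 68 members, and 3 exact motifs were searched on both strands. The palindromic NRF1 motif, in capitals in the first 4 stretches listed here, was found in 5 members (7.35%, against 2.65% of tested genes and 1.07% of all genes), and the YY1 motif AAGATGGCG in 7 (10.3%, against 4.44% and 1.64%). The ETS motif CCGGAAGT was found in 5 members (7.35%), a share below the 11% of tested genes (775 of 7047) and above the 4.31% of all genes. No member held more than 1 kind of motif. Matches are descriptions of these letters and not of binding. A few stretches, picked after values were seen, are shown as examples of members whose counts are given here. Capitals mark NRF1 for Uqcrc1, Ndufa11, Cox6a1 and Atp5g2, YY1 for Ndufs4, Ndufs6 and Ndufs7, and the reverse complement of the ETS motif for Uqcrh and Ndufs3:
Uqcrc1, chr9:108936670-108936695, plus strand: tccgctctGCGCATGCGCagcgcggc
Ndufa11, chr17:56717694-56717719, plus strand: tgcactgcGCGCATGCGCgcacgcct
Cox6a1, chr5:115349103-115349128, minus strand: ggaacgggGCGCATGCGCgctctcgc
Atp5g2, chr15:102671072-102671097, minus strand: ctccggccGCGCATGCGCagagcctt
Ndufs4, chr13:114388045-114388067, minus strand: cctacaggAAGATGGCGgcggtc
Ndufs6, chr13:73328433-73328457, minus strand: tcaccggcAAGATGGCGgcggtgct
Ndufs7, chr10:80249465-80249489, plus strand: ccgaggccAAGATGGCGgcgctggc
Uqcrh, chr4:116075066-116075089, minus strand: tatgccgcACTTCCGGccaggtcg
Ndufs3, chr2:90904706-90904729, minus strand: acatttccACTTCCGGtccgtgcc

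Members with the same motif letters had unlike counts in the Cre libraries. Ndufs6 had 673 counts in Cre 1 and 0 in Cre 2, and Ndufs7, with the same YY1 letters, had 28 and 294, while Ndufs4 had 9 and 0. Of the NRF1 members, Ndufa11 had 0 to 226 counts in Control, 839 in Cre 1 and 44 in Cre 2, and Uqcrc1 had 1 and 0 in Cre.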

How the data were processed

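RNA of FACS-sorted intratumoral CD4 T cells was made into 3′ UTR libraries, 5 Control and 2 Cre, grouped by title. Per the file headers, the deposited table holds raw counts for 116000 regions in 7 libraries; FastQC 0.11.8, HISAT2 2.1.0, DESeq2 and mm10 are named in the submitters' processing notes, while nothing states the counting tool or its use of strand. The authors' comparison table gives p-values and FDR, a fold (ratio) and a log2 fold change, per the file headers. Its GC percent column, as deposited, was not used.

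Counts were summed per gene. The test was edgeR 4.0.16 (R 4.3.3), quasi-likelihood, TMM, filterByExpr (minimum count 10, total 15), 9854 genes, group only, all 7 libraries, Benjamini-Hochberg at 0.05, two-sided; the SE comes from the F statistic. Alternatives were DESeq2 1.42.0, limma 3.58.1 voom with and without weights, other scalings and filters, the replicate number as a block, and each library left out. DESeq2's independent filtering was set to 0.05 after a first run at its default of 0.1, which gave 32 genes higher and 601 lower in place of 35 and 607, with the same 1 and 5 members. Members and lists were chosen with earlier results of these data known. Printed fold changes are for members named by smallest p, highest level in a complex, or counts in all Control libraries and 0 in Cre; others are given by counts. Genes singled out among the rest, the motifs and the Cre 1 against Cre 2 comparison were chosen after values were seen. Regions were placed against GENCODE M21. The fit was tested on simulated data. P-values measure the spread between these libraries. Of the members, 5 have regions overlapping another gene on the same strand and 14 on the opposite strand, and 15 processed pseudogenes bear members' names, so reads may be shared. The values of 1 member are not reported here and it is left out of the plots of single members.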

Additional observations from a re-analysis of the deposited data

Results flagged for a closer look

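Among 50 results examined in the 5 Control libraries, 7 had a single library far from the others (Dixon's test at 95%, which chance alone flags in about 1 of 20 groups). Ndufa3 in Control 4 was at 16449 CPM, where the other Control libraries ran from 62.0 to 248 CPM. Of the 7, 2 follow from it: the sum of complex I in Control 4 was 20996 CPM against 3594 to 4606 CPM, and that of all members 30722 CPM against 11205 to 15643 CPM. Ndufs1 in Control 2 was at 72.1 CPM against 22.1 to 29.0 CPM. Ndufs7 in Control 5 was at 125 CPM against 29.0 to 48.5 CPM. In Control 3, Cox5b was at 218 CPM against 41.8 to 77.7 CPM and Atp5b at 704 CPM against 103 to 277 CPM.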

How the results depend on the processing

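Over 16 settings, edgeR and voom called 0 members higher throughout, and DESeq2 called 1. Lower members called went from 0 to 5 with DESeq2, to 1 without a filter (Atp5g1), to 1 with the replicate block (Ndufa3, adjusted p = 9.33e-07) and from 0 to 7 over the libraries left out, with 7 without Cre 1. Over all genes, 0 higher and 1 lower became 35 and 607 with DESeq2, 3 and 0 with voom, 1 and 0 with weighted voom, 15 and 28 without a filter, and 5 lower with the block; leaving out libraries gave 0 to 17 higher and 1 to 202 lower. Shares of all tested genes were not taken for the edgeR fits without a filter or without a library. Whether the members called in those fits exceeded the background was not tested. The block fit compares the groups within replicates 1 and 2 alone, since replicates 3, 4 and 5 exist only in Control. Correlations of deviations lay between −0.005 and 0.005, which does not settle whether the replicate numbers pair samples. With 2 Cre libraries, each centred on their mean, the deviations of a gene mirror each other. For the next counts, shares of all tested genes were taken only in the main test (1.41% higher, 10.2% lower). Whether the members moved more than all tested genes between settings was thus not tested. At an unadjusted p, 2 higher and 8 lower members became 13 lower with DESeq2, 5 lower with voom, 1 and 1 with weighted voom, 4 higher without a filter, 1 and 5 with the block, and 2 to 5 and 4 to 22 over the libraries left out.

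Medians of log2 fold change moved to −0.70, −0.77 and −0.52 over all members with voom, weighted voom and the block, to −0.89, −1.05 and −1.05 in complex I, to −1.74, −1.60 and −1.76 in complex II, and to −0.50 in complex V with weighted voom. Over the libraries left out they ran from −0.98 to −0.27 over all members, −1.67 to −0.15 in complex I, −3.89 to −0.12 in II, −1.74 to −0.82 in III, −0.45 to 0.07 in IV and −0.67 to −0.21 in V. The log2 ratio of sums without each complex's most abundant member was −0.16 in II and −0.89 in III, and over the libraries left out −1.68 to 0.11 in II.

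Signs turned for members near 0: Ndufb3 (0.067, 0.067, 0.060), Uqcrb (0.061, 0.061, 0.032), Uqcrh (0.033, 0.033, 0.028) and Cox6c (0.018, 0.018, 0.0014) with DESeq2, its size factors and no filter; Uqcrb with voom (0.18) and the block (0.19); and Atp5a1 with voom (−0.083) and weighted voom (−0.10). Over the libraries left out, values ran from −0.37 to 0.28 for Ndufb3, −0.27 to 0.22 for Uqcrb, −0.36 to 0.22 for Uqcrh, −0.57 to 0.30 for Cox6c, −0.73 to 0.71 for Atp5a1, −0.047 to 0.87 for Ndufa1, −0.20 to 0.84 for Sdha, −0.36 to 1.55 for Cox5a and −0.075 to 0.62 for Cox7a2l. The cause was not tested. Uqcrc1, with 1 and 0 counts in Cre, stayed below 0 in every setting, from −8.77 to −4.37.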

Other observations

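Processed pseudogenes named after members were counted beside them. The 15 in the table summed to 800, 642, 742, 1045 and 451 counts in Control against 958 and 434 in Cre, and Atp5l2-ps held most of them, with 261 to 796 counts in Control against 622 and 312 in Cre. Its namesake family member Atp5l had 193 to 259 counts in Control against 371 and 55 in Cre, so the pseudogene had the higher count in each library.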
